A study of Caenorhabditis elegans with 12 samples.

Results

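The 10 protease genes followed here are commonly placed in the worm intestine and comprise the cathepsin B-like genes *cpr-1*, *cpr-3*, *cpr-4*, *cpr-5* and *cpr-6* and the aspartyl protease genes *asp-1*, *asp-2*, *asp-3*, *asp-4* and *asp-5*. They were chosen by symbol, and all 10 were found once each among the 46726 gene identifiers of the expression table. RNA came from whole *C. elegans* grown on the *E. coli* strain OP50 and collected at 2 times, the L4 larval stage (48 hr after L1 larvae were placed on food) and day 3 of adulthood (120 hr). Wild type worms (WT) were N2 Bristol, and the mutant worms carried *alh-6(lax105)*, a loss-of-function allele of the mitochondrial enzyme that makes glutamate from the proline breakdown product P5C. Each of the 4 groups had 3 libraries. The mutant was represented by 1 allele, each library held the pooled RNA of many worms, and the labels do not say whether libraries came from separate cultures, so p-values measure the spread between these libraries. Whole-worm RNA does not show in which tissue a gene was expressed, so the intestinal label of the 10 genes could not be checked directly.

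The worm intestine digests bacteria with proteases that are secreted into the lumen or kept in acidic lysosomes and lysosome-related gut granules. Cathepsin B-like enzymes cut proteins with an active-site cysteine and aspartyl proteases, relatives of mammalian cathepsins D and E, with a pair of aspartates. Both are made as inactive precursors that mature in acid compartments, and in *C. elegans* members of both families also act outside digestion, in yolk handling, molting, cell death and stress.

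The libraries held 19248229 to 23575173 reads on genes, and the 10 genes drew between 317 reads (*cpr-3*) and 140834 reads (*asp-1*) in a library, so counting error was small against the spread between libraries for most of them. Levels are given as FPKM, fragments scaled to gene length and to the reads of the library. The *alh-6* transcript itself lay at 68.4 to 70.5 FPKM in WT, against 60.6 to 62.6 FPKM in the mutant at L4. In day 3 adults it lay at 31.9 to 33.9 FPKM in WT, against 32.0 to 34.8 FPKM in the mutant. The sources used here do not say what the allele does to the transcript level, so these values do not check the genotype labels.

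Among the 10 genes *asp-1* was by far the most abundant at L4. It is an aspartyl protease made in intestinal cells, and it lies on chromosome V from 19049562 to 19050752 on the minus strand (WBcel235). At L4 its level was 3433, 3542 and 3039 FPKM in the WT libraries and 4526, 3424 and 3738 FPKM in the *alh-6* libraries. In day 3 adults it was 492, 499.9 and 432 FPKM in WT, against 524, 543 and 523 FPKM in *alh-6*. Every adult library lay far below every L4 library, whatever the genotype, while the genotypes overlapped at L4 and did not in adults.

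A similar drop with stage was seen for *asp-2* (V, 9203077 to 9204734, plus strand), another member of the family. It was measured at 527, 562 and 432 FPKM in WT L4 worms and 648, 532 and 543 FPKM in *alh-6* L4 worms. Its adult level was 139, 134 and 136 FPKM in WT, against 126, 138 and 119.7 FPKM in *alh-6*. The stages were separate in both genotypes, and the genotypes overlapped at both stages. The FPKM of *asp-2* were computed with a gene length of 2083 bases, against 1381 exon bases in the annotation used here, which lowers its level relative to the other genes but not its differences between libraries, and 74 of its exon bases lie opposite the gap junction gene *inx-10*, whose mean level was 3.39 FPKM.

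For *asp-3* (X, 6791064 to 6792709, plus strand), which with *asp-4* is needed for the necrotic death of neurons, the L4 libraries read 955, 994 and 840.4 FPKM in WT, against 1219, 1074 and 1063 FPKM in *alh-6*. Adults read 402, 398 and 392 FPKM in WT, against 442, 418 and 481 FPKM in *alh-6*. At both stages all mutant libraries lay above all WT libraries.

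*asp-4* (X, 13218985 to 13221462, minus strand), the worm gene often likened to mammalian cathepsin D, was the 1 aspartyl protease of the 5 that was not lower in adults. Its L4 level was 252, 255 and 213 FPKM in WT, against 339, 268 and 279.6 FPKM in *alh-6*, and its adult level 326, 289.7 and 318 FPKM in WT, against 337, 333 and 344 FPKM in *alh-6*. The WT stages did not overlap, and the *alh-6* stages did, because 1 mutant L4 library was as high as the adults.

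*asp-5* (V, 8272385 to 8274044, plus strand) gave 687, 709 and 558 FPKM in WT, against 962, 749.5 and 771 FPKM in *alh-6* at L4. In adults it gave 331, 322 and 319.3 FPKM in WT, against 291, 299 and 319.3 FPKM in *alh-6*. At L4 all mutant libraries lay above all WT libraries. In adults the mutant mean was lower as deposited, and the closest libraries of the 2 genotypes were nearly equal. With each library rescaled by its median ratio to a common reference, the adult genotypes overlapped (327.1 to 340.5 FPKM in WT, against 311.5 to 350.0 FPKM in *alh-6*).

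Of the cysteine proteases, *cpr-6* (X, 6607207 to 6609045, plus strand), a cathepsin B homolog, was the most abundant. WT worms had 578, 568.5 and 463 FPKM at L4 and 764, 690.3 and 736 FPKM as adults. *alh-6* worms had 905, 771 and 828 FPKM at L4 and 779, 809 and 812 FPKM as adults. The WT L4 libraries were low and the other 9 libraries were all above them.

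*cpr-1* (V, 11975551 to 11976756, plus strand) encodes a gut-specific cysteine protease. At L4 it was at 215, 194 and 189 FPKM in WT, against 234, 233.5 and 261 FPKM in *alh-6*. Its adult libraries were at 469, 426 and 426 FPKM in WT, against 341, 366.5 and 518 FPKM in *alh-6*. All adult libraries were above all L4 libraries, and the third *alh-6* adult library stood well above the other two.

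*cpr-4* (V, 6614674 to 6615851, plus strand), a secreted cathepsin B that has been tied to signals from irradiated to unexposed tissue in worms, followed the same direction with stage. L4 worms had 218, 234.6 and 199 FPKM in WT, against 243, 208.5 and 195 FPKM in *alh-6*, and adults 341.5, 312 and 322 FPKM in WT, against 269.6, 271 and 330.1 FPKM in *alh-6*. The stages were separate and the genotypes overlapped at each of them.

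*cpr-5* (V, 1132598 to 1134036, minus strand), a further cathepsin B homolog, went the other way. It was at 341, 339 and 339 FPKM in WT, against 363, 306.5 and 383 FPKM in *alh-6* at L4, and at 114.9, 117 and 95.6 FPKM in WT, against 132, 117.1 and 146 FPKM in *alh-6* in adults. All adult libraries were below all L4 libraries.

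*cpr-3* (V, 15296834 to 15298700, minus strand) was the least abundant of the 10. Its L4 level was 18.9, 20.8 and 16.9 FPKM in WT, against 19.6, 18.0 and 17.1 FPKM in *alh-6*, and its adult level 14.7, 13.1 and 12.8 FPKM in WT, against 19.3, 13.2 and 11.6 FPKM in *alh-6*. The first mutant adult library was as high as the L4 libraries, and without it the stages would not overlap. Of the 10 genes 7 are on chromosome V, at positions far from each other, and 3 on X.

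**Figure D1:**
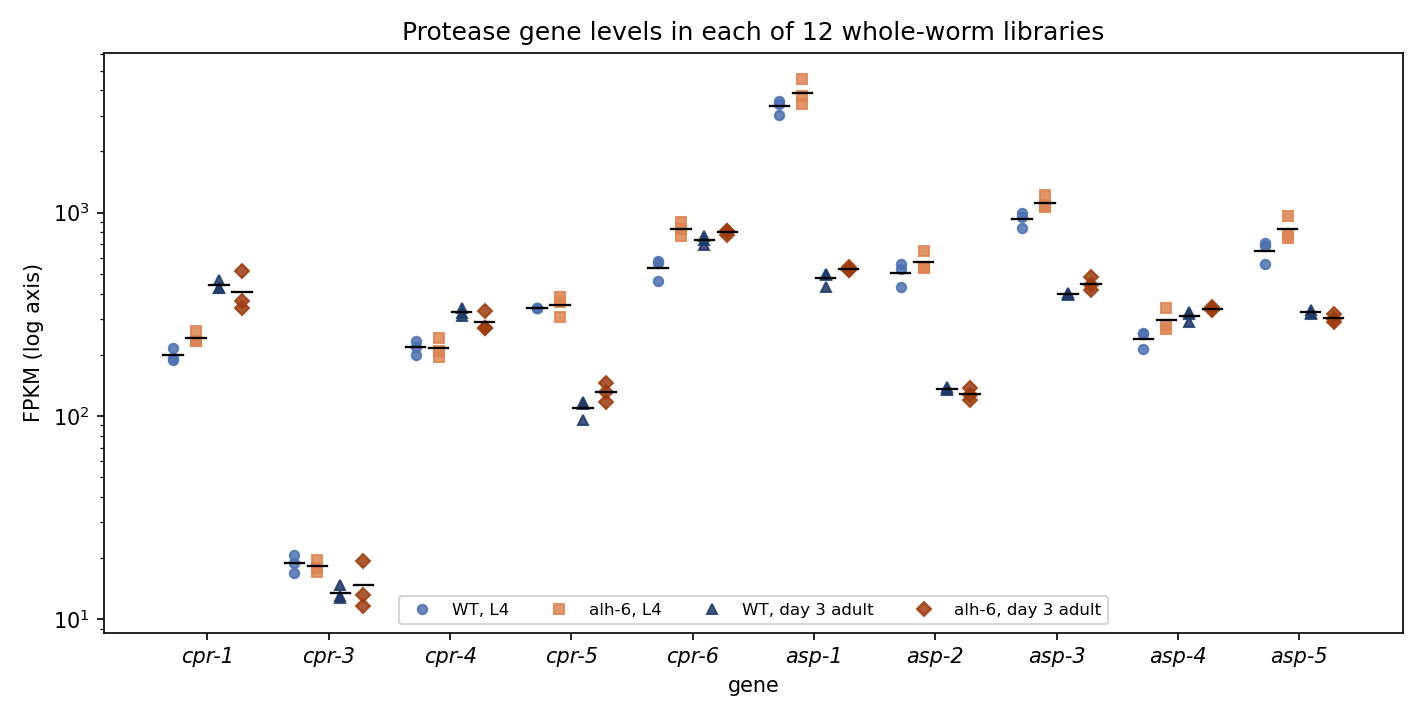
FPKM (log axis) of each of the 10 genes in the 12 libraries, with 1 point per library, the 4 groups side by side within each gene and a black bar at each group's mean. *asp-1* stood at 3039 to 4526 FPKM at L4 and at 432 to 543 FPKM in adults, while *cpr-3* stayed between 11.6 and 20.8 FPKM.

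The order of levels changed with stage, as far as the gene length behind each FPKM holds. The FPKM of *asp-2* used 2083 bases against 1381 exon bases, which lowers them. Its place in the order and the ranks near it are therefore uncertain. In WT at L4 the mean FPKM ran from *asp-1* (3338 ± 265, SD, n = 3) through *asp-3* (929.8 ± 79.8), *asp-5* (652 ± 81.4), *cpr-6* (536 ± 63.8) and *asp-2* (507 ± 66.9) to *cpr-5* (339.5 ± 1.58), *asp-4* (240.0 ± 23.5), *cpr-4* (217 ± 17.7), *cpr-1* (199 ± 14.2) and *cpr-3* (18.9 ± 1.94). Neighbours whose libraries overlapped were *asp-5* and *cpr-6*, *cpr-6* and *asp-2*, *asp-4* and *cpr-4*, and *cpr-4* and *cpr-1*. In *alh-6* at L4 *cpr-6* (835 ± 67.2) had rank 3, level with *asp-5* (827 ± 117) within their spread. In day 3 adults of both genotypes *cpr-6* came first, at 730.0 ± 37.2 FPKM in WT, against 799.7 ± 18.3 FPKM in *alh-6*, above *asp-1* (475 ± 37.2 and 529.9 ± 10.96) with no overlap of libraries. *cpr-1* had rank 9 in WT L4 worms and rank 3 in WT adults, where it overlapped *asp-1*, and *cpr-3* was last in all 4 groups.

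The summed FPKM of the 10 genes were 6978 ± 604 in WT and 8374 ± 971 in *alh-6* at L4, and 3262 ± 114 and 3390 ± 186 in adults. The 5 aspartyl proteases accounted for the lower adult total. Their sum was 5666 ± 516 FPKM in WT, against 6712 ± 867 FPKM in *alh-6* at L4, and 1643 ± 46.0 and 1745 ± 35.4 FPKM in adults. The sum of the 5 cysteine proteases was 1311 ± 91.6 and 1662 ± 116 FPKM at L4 and 1618 ± 76.4 and 1645 ± 150.3 FPKM in adults, so that their share of the total was 18.8% ± 0.47 in WT L4 worms and 49.6% ± 0.83 in WT adults. *asp-1* alone made up 47.9% ± 0.42 of the total in WT at L4 and 14.6% ± 1.04 in WT adults. As a share of all FPKM of a library, the 10 genes took 0.828% ± 0.076 in WT and 0.996% ± 0.121 in *alh-6* at L4, and 0.458% ± 0.017 and 0.485% ± 0.009 in adults.

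**Figure D2:**
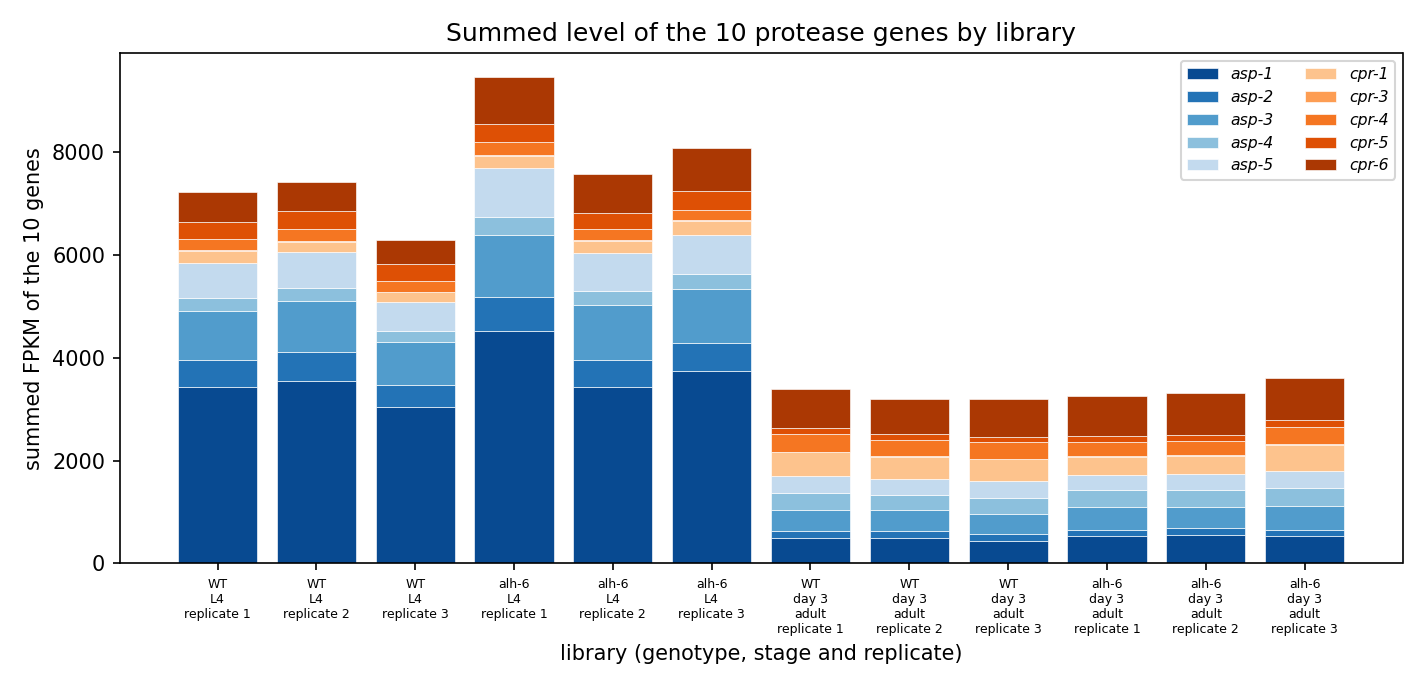
Summed FPKM of the 10 genes in each of the 12 libraries, stacked by gene (blue for aspartyl proteases, orange for cysteine proteases), with the bars starting at 0. The L4 bars reach 6289 to 9458 FPKM and the adult bars 3190 to 3604 FPKM, and most of the gap is *asp-1*.

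From L4 to day 3 of adulthood in WT, all 10 genes changed in the limma fit over 13674 genes, called at an adjusted p under 0.05. *cpr-1*, *cpr-4*, *cpr-6* and *asp-4* rose, and *asp-1*, *asp-2*, *asp-3*, *asp-5*, *cpr-5* and *cpr-3* fell. So many genes differed between these stages that the count itself says little, since 39.5% of all tested genes were called higher and 51.5% lower. The largest change was that of *asp-1*, which fell by 2.81 on the log2 scale (SE 0.073, adjusted p = 3.8e-09), a 7.03-fold drop. *asp-2* fell by 1.89 (SE 0.088), *cpr-5* by 1.64 (SE 0.073), *asp-3* by 1.22 (SE 0.060) and *asp-5* by 1.00 (SE 0.084) on that scale. *cpr-1* rose by 1.15 (SE 0.062, adjusted p = 1.4e-07), a 2.21-fold increase, *cpr-4* by 0.58 (SE 0.064), *cpr-6* by 0.45 (SE 0.085, adjusted p = 0.00093) and *asp-4* by 0.38 (SE 0.077, adjusted p = 0.0013). *cpr-3* fell by 0.47 (SE 0.097, adjusted p = 0.0013).

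These stage differences depend in size on how libraries are scaled, because over all tested genes the median log2 fold change was -0.40 with FPKM as deposited and -0.13 after each library was rescaled by its median ratio to a common reference, a shift of 0.27. All 10 calls and directions in WT held after rescaling, with *asp-1* at -2.58, *asp-3* at -0.99, *cpr-3* at -0.24, *asp-4* at 0.61 and *cpr-1* at 1.38. The median of the 10 genes was -0.74 before rescaling and -0.50 after it.

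In *alh-6* worms 7 of the 10 genes were called between the stages, 2 higher and 5 lower, beside 36.9% of 13798 genes called higher and 52.9% lower. Of those that fell, the log2 fold changes were -2.87 (SE 0.111) for *asp-1*, -2.16 (SE 0.094) for *asp-2*, -1.44 (SE 0.105) for *asp-5*, -1.41 (SE 0.106) for *cpr-5* and -1.32 (SE 0.091) for *asp-3*. *cpr-1* rose by 0.73 (SE 0.146, adjusted p = 0.0011) and *cpr-4* by 0.43 (SE 0.108, adjusted p = 0.0036). The 3 genes that were not called were *cpr-3* (-0.34, adjusted p = 0.090), *asp-4* (0.20, adjusted p = 0.068) and *cpr-6* (-0.06, SE 0.086, adjusted p = 0.53). Here the scaling shift was 0.33, and after rescaling *asp-4* (0.50, adjusted p = 0.0014) and *cpr-6* (0.25, adjusted p = 0.047) were both called higher, so the sign of the *cpr-6* change in the mutant depends on the scaling. The change of *cpr-3* was -0.04 after rescaling (adjusted p = 0.83). *cpr-3* and *asp-4* were both called with limma-voom (adjusted p = 0.029 and 0.030), *asp-4* also without *alh-6* L4 replicate 1 (0.30, adjusted p = 0.0041) and *cpr-3* also without *alh-6* day 3 replicate 1 (-0.55, adjusted p = 0.0018). The count of 7 was thus 9 with rescaling and with limma-voom. Over all genes 5085 were called higher and 7295 lower as deposited, and 5774 and 6523 after rescaling. With most genes called, and no such share given for limma-voom, the count of 9 is no result about the members.

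Markers of tissues moved between the stages as well. Of 9 intestinal markers, which include the gut GATA factors *elt-2* and *elt-7* and the gut esterase *ges-1*, 8 fell and 1, the metallothionein *mtl-2*, rose in each genotype, and their summed level went from 2092 to 2508 FPKM in WT L4 worms to 444 to 506 FPKM in WT adults, and from 2024 to 2635 to 378 to 577 FPKM in *alh-6*. The 7 germline markers summed to 1118 to 1227 FPKM at L4 and 2013 to 2068 FPKM in adults in WT, and to 923 to 1062 and 1974 to 2036 FPKM in *alh-6*, with 6 called higher and 1 lower in each genotype. Of 6 sperm markers 5 fell in WT and 6 in *alh-6*, with sums of 208 to 259 FPKM in the L4 libraries and 1.54 to 2.71 FPKM in the adult libraries, and of 6 neuron markers 5 fell and 1 rose in each genotype, with sums that overlapped between the stages. The sums for epidermis, body wall muscle and pharynx were all lower in adults, and no list had a marker at 0 in all libraries of a group except the sperm gene *spe-38* in adults. In bulk samples fewer cells of a type and less RNA per cell cannot be told apart, and the part that tissue make-up has in the protease differences was not tested.

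**Figure D3:**
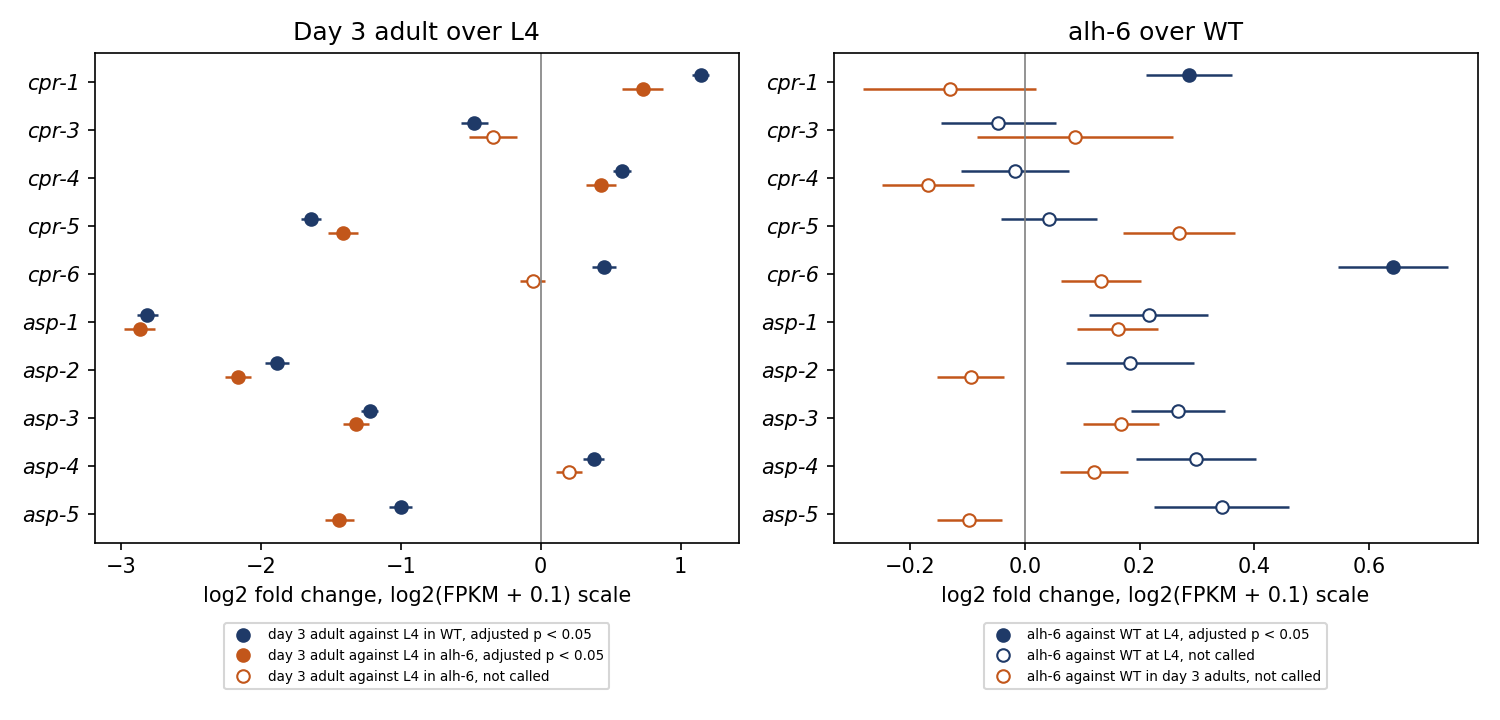
Log2 fold change on the log2(FPKM + 0.1) scale of each gene, with bars of 1 standard error, for day 3 adults over L4 (left, WT in blue and *alh-6* in orange) and for *alh-6* over WT (right, L4 in blue and day 3 adults in orange). Filled points were called at an adjusted p under 0.05, which holds for 10 genes in WT and 7 in *alh-6* on the left and for *cpr-1* and *cpr-6* at L4 on the right.

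The comparison of genotypes at L4 asked which genes differ before the adult phenotypes of the mutant. *cpr-6* was 1.56-fold higher in *alh-6* (log2 fold change 0.64, SE 0.097, adjusted p = 0.0028 in limma), with the lowest mutant library at 771 FPKM and the highest WT library at 578 FPKM. *cpr-1* was 1.22-fold higher (0.29, SE 0.075, adjusted p = 0.035). These 2 calls stand beside 8.19% of 13851 genes called higher and 7.15% called lower. The call of *cpr-6* held under every alternative tried except a minimum fold change of 2, which no member reached in this comparison. The call of *cpr-1* was lost without a filter on low values (adjusted p = 0.071), in a fit of all 12 libraries (adjusted p = 0.15), and when WT replicate 2 or 3 or any of the mutant libraries was left out (adjusted p from 0.050 to 0.11).

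*asp-5* (0.34, SE 0.118, adjusted p = 0.088), *asp-4* (0.30, SE 0.105, adjusted p = 0.091) and *asp-3* (0.27, SE 0.082, adjusted p = 0.058) missed the threshold, although all their mutant libraries lay above all WT libraries. With *cpr-1* and *cpr-6* this made 5 of 10 genes whose libraries did not overlap, all higher in the mutant, while over all tested genes 17.3% were higher and 20.3% lower without overlap. All 3 were called in a fit of all 12 libraries, with adjusted p of 0.035 for *asp-3*, 0.043 for *asp-4* and 0.037 for *asp-5*, and with a replicate block. With limma-voom *asp-3* and *asp-4* were called and *asp-5* was not (adjusted p = 0.055). The share of all genes called in these alternative fits is not given. None of the 3 was called after rescaling (adjusted p from 0.079 to 0.12) or without a filter on low values (0.12 to 0.18). The same held with any library left out (adjusted p from 0.055 to 0.24). *asp-1* (0.22, adjusted p = 0.19), *asp-2* (0.18, adjusted p = 0.30), *cpr-5* (0.04, adjusted p = 0.77), *cpr-4* (-0.02, adjusted p = 0.92) and *cpr-3* (-0.05, adjusted p = 0.78) did not pass. The median over the 10 genes was 0.24, against -0.03 over all tested genes.

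At this stage the genotypes also differed in markers of other tissues. Of 7 epidermal markers 3 collagens of the cuticle were higher in *alh-6* and the adult collagen *col-19* was lower. *dpy-7* was at 3.92 to 5.56 FPKM in WT, against 14.8 to 18.4 FPKM in *alh-6* (log2 fold change 1.84, adjusted p = 2.0e-04), *rol-6* at 37.5 to 46.5 and 96.5 to 109.8 FPKM (1.35, adjusted p = 1.7e-04) and *bli-1* at 12.0 to 16.6 and 36.8 to 48.5 FPKM (1.49, adjusted p = 4.2e-04). *col-19* was at 1322 to 1392 FPKM in WT, against 792 to 999.4 FPKM in *alh-6* (-0.58, adjusted p = 0.0024). The epidermal sum was 2282 to 2432 FPKM in WT, against 1717 to 1883 FPKM in *alh-6*, and 3 of 7 germline markers were lower in the mutant with none higher. Cuticle collagens are made at set times as the larval and adult cuticles are built. Whether the L4 worms of both genotypes were at the same point of this building was not tested. Of the 6 neuron markers 1, *egl-3*, was higher (0.29, adjusted p = 0.040), a call lost without WT replicate 1 or 3 or any of the mutant libraries (adjusted p from 0.080 to 0.12). Of the intestinal markers only *ges-1* differed (0.32, adjusted p = 0.015), and the intestinal sums of the genotypes overlapped, at 2092 to 2508 FPKM in WT, against 2024 to 2635 FPKM in *alh-6*.

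In day 3 adults no member was called between the genotypes in limma, beside 2.14% of 10501 genes called higher and 4.18% lower. With limma-voom on the recovered reads 0 members were called as well. After rescaling, the background split turned from 225 higher and 439 lower to 293 higher and 151 lower. The log2 fold changes lay between -0.17 for *cpr-4* (SE 0.080, adjusted p = 0.21) and 0.27 for *cpr-5* (SE 0.097, adjusted p = 0.12), with *cpr-6* at 0.13 (SE 0.070, adjusted p = 0.25) and *asp-1* at 0.16 (SE 0.071, adjusted p = 0.18). The libraries of 6 genes did not overlap, with *cpr-5*, *cpr-6*, *asp-1*, *asp-3* and *asp-4* higher and *asp-5* lower in the mutant, and over all tested genes 8.28% were higher and 24.5% lower without overlap. After rescaling the libraries of *asp-5* overlapped, and its log2 fold change went from -0.10 to -0.02 (adjusted p = 0.895 in limma). The median over the 10 genes was 0.10, against -0.08 over all tested genes.

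One library decided part of this result. Without *alh-6* day 3 replicate 3, in which *cpr-1* was at 518 FPKM and *cpr-4* at 330.1 FPKM, *cpr-1* (-0.32, adjusted p = 0.0061) and *cpr-4* (-0.27, adjusted p = 0.0067) were both called lower in the mutant adults. The marker lists that differed at this stage were those of body wall muscle, with 4 of 4 tested genes higher in *alh-6* and sums of 46.1 to 63.0 FPKM in WT, against 115.2 to 126.1 FPKM in the mutant, and to a lesser extent intestine and neurons with 1 call each.

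The fit of all 12 libraries tested whether the genotype difference itself changed with stage. *cpr-6* was the 1 gene of 10 called, with a genotype by stage term of -0.51 (SE 0.121, adjusted p = 0.024), which says that the mutant's excess was 0.64 at L4 and 0.13 in adults. Over 14497 genes 3.37% were called with a positive term and 4.01% with a negative one, or 488 and 582 genes with FPKM as deposited and 777 and 456 after rescaling. The call of *cpr-6* was lost after rescaling (-0.42, adjusted p = 0.061) and without *alh-6* L4 replicate 1 (-0.45, adjusted p = 0.055), WT day 3 replicate 1 (-0.48, adjusted p = 0.062) or WT day 3 replicate 3 (-0.50, adjusted p = 0.056). *asp-5* had a term of -0.44 (SE 0.143, adjusted p = 0.083) and *cpr-1* one of -0.42 (SE 0.178, adjusted p = 0.19). Without *alh-6* day 3 replicate 3 the term of *cpr-1* was -0.60 and passed (adjusted p = 0.0065), in a fit for which the share of all genes called is not given. The terms of the other 7 genes lay between -0.28 for *asp-2* and 0.23 for *cpr-5*.

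Markers of several tissues had called terms too. Of the 9 intestinal markers 2 had a called negative term, the sign of the *cpr-6* term. They were the peptide transporter gene *pept-1* (-0.67, SE 0.131, adjusted p = 0.0097) and the sodium-proton exchanger gene *nhx-2* (-0.64, SE 0.151, adjusted p = 0.022). Unlike *cpr-6*, neither was called between the genotypes at L4, and *nhx-2* was called lower in *alh-6* adults (-0.59, adjusted p = 0.025). The term of *nhx-2* lost its call without WT L4 replicate 3 (adjusted p = 0.056) or WT day 3 replicate 3 (adjusted p = 0.053). The epidermal list had 2 negative terms and 1 positive one among 7, the germline list 3 positive ones among 7 and the body wall muscle list 2 positive ones among 5, while the sperm, pharynx and neuron lists had 0. The part of these tissues in the *cpr-6* term was not tested.

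Some libraries deviated from their group in the same direction for most of the 10 genes, mainly at L4. WT L4 replicate 3 was below its group's mean for all 10 genes, by a median of 0.15 on the log2 scale, and *alh-6* L4 replicate 2 was below it for all 10 as well (median 0.11 below). *alh-6* L4 replicate 1 was above the mean for 9 of 10 genes (median 0.15), and WT L4 replicate 1 and WT day 3 replicate 1 for all 10 (medians 0.05 and 0.07). In the other 5 adult libraries the signs were mixed, with 2 to 7 of the 10 genes above the mean. The spread was widest for *cpr-1* and *cpr-3* in *alh-6* adults, with coefficients of variation of 23.4% and 27.7%, and these 2 genes deviated in opposite directions, *cpr-3* highest in replicate 1 and *cpr-1* in replicate 3.

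**Figure D4:**
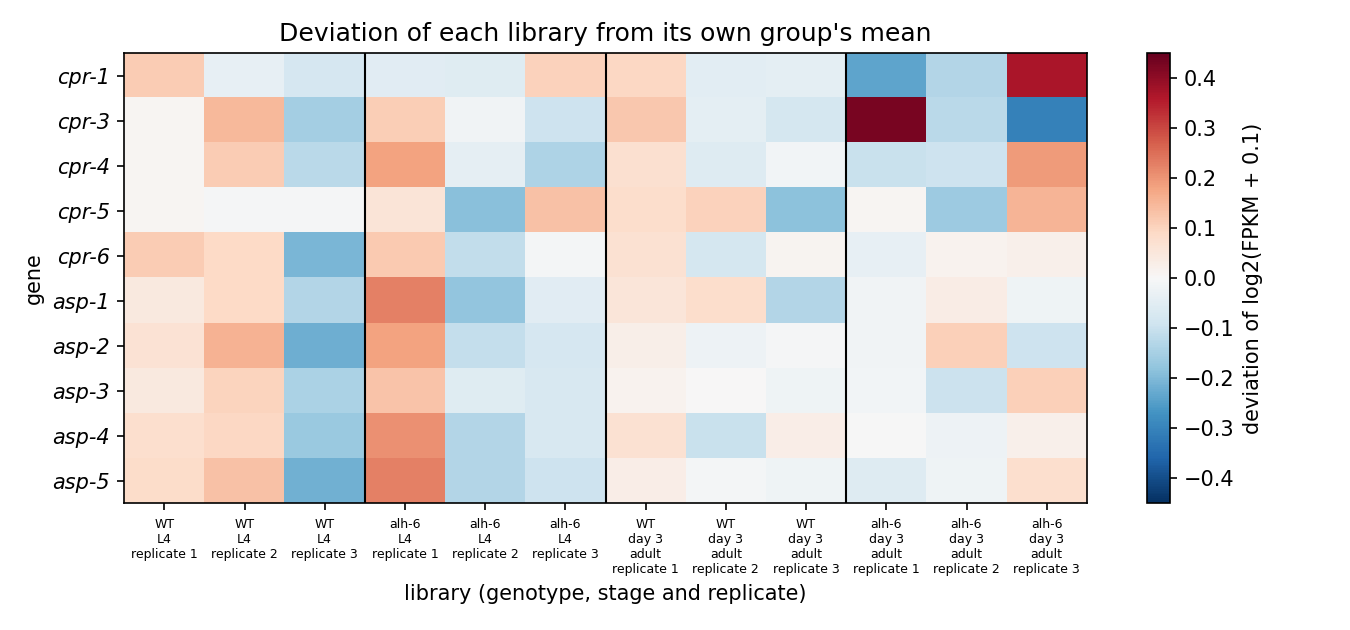
Deviation of log2(FPKM + 0.1) from the mean of the library's own group for the 10 genes (rows) in the 12 libraries (columns, groups divided by black lines), red above and blue below the mean. WT L4 replicate 3 is below for all 10 genes and *alh-6* L4 replicate 1 above for 9, and the strongest cells are *cpr-1* and *cpr-3* in *alh-6* day 3 adults.

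Correlations of these deviations over the 12 libraries describe which genes moved together once stage and genotype were taken out, and they share the scaling of each library. Pearson's r was 0.93 for *asp-4* with *asp-5*, 0.92 for *cpr-6* with *asp-4*, 0.91 for *asp-3* with *asp-5* and 0.90 for *cpr-4* with *asp-3*. It was -0.60 for *cpr-1* with *cpr-3*, the lowest of the 45 pairs, whose median was 0.47. With stage and genotype left in, the correlation of levels split the genes along the stage difference, with r = 0.995 for *asp-1* with *asp-2*, 0.99 for *asp-1* with *cpr-5*, 0.91 for *cpr-1* with *cpr-4* and 0.87 for *cpr-6* with *asp-4*.

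The genes most like each member over the 12 libraries were sought among the 9306 genes that averaged 5 FPKM or more, as a description that the stage difference dominates. For *asp-1* they were *pab-2* and *exc-15* (r = 0.999 for both), for *asp-2* *aco-1* and *fshr-1* (0.999), for *asp-3* *gpa-17* and *eef-1A.2* (0.996), and for *asp-5* *atic-1* (0.996) and *paic-1* (0.995). *cpr-5* was closest to *oaz-1* (0.996) and *cpna-1* (0.995), and *cpr-1* to *pccb-1* (0.991) and *epn-1* (0.971). *cpr-4* was closest to *sgt-1* (0.967) and *pbs-4* (0.965), and *asp-4* to *clec-85* (0.968) and *gck-4* (0.940). The lowest likeness was found for *cpr-6*, closest to *ivns-1* (0.940) and *ZK550.2* (0.894), and for *cpr-3*, closest to *C32F10.4* (0.920) and *tlp-1* (0.912).

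The other members of both families were examined alongside. Of the 3 other cathepsin B-like genes in the table, *cpr-9* and *cpr-8* passed the filter and *cpr-2* stayed at or below 0.24 FPKM in every library. *cpr-9* was at 347 to 419 FPKM in WT L4 worms and 250.0 to 288 FPKM in WT adults (-0.53, adjusted p = 1.9e-04), and *cpr-8* at 12.5 to 13.04 and 5.74 to 6.53 FPKM (-1.07, adjusted p = 4.2e-06). Both fell in both genotypes, so that among the cathepsin B-like genes tested only *cpr-1*, *cpr-4* and *cpr-6* rose with stage in WT. Neither was called between genotypes at either stage, with *cpr-9* at 0.24 at L4 (adjusted p = 0.16).

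Of 12 other aspartyl protease genes 6 passed the filter, and 5 of these 6 fell from L4 to adulthood in each genotype. Over all tested genes 51.5% fell in WT and 52.9% in *alh-6*. *asp-6*, the most abundant, was at 910.1 to 1115 FPKM in WT L4 worms and 567 to 627 FPKM in WT adults (-0.79, adjusted p = 1.1e-05). *asp-13* went from 266 to 382 FPKM to 169.7 to 182 FPKM (-0.93, adjusted p = 2.2e-04), and *asp-14* from 151 to 246 FPKM to 55.6 to 70.1 FPKM (-1.74, adjusted p = 2.2e-04). Between genotypes at L4 the calls were *asp-12* and *asp-17*, which are named here because they were the only 2 and were chosen after their values were seen. *asp-12* was at 20.8 to 23.8 FPKM in WT, against 62.3 to 69.7 FPKM in *alh-6* at L4 (1.56, SE 0.078, adjusted p = 7.1e-05), and at 14.1 to 15.97 and 8.70 to 11.4 FPKM in adults (-0.56, adjusted p = 0.020). Its genotype by stage term was -2.12 (SE 0.146, adjusted p = 4.4e-05). The adult call was lost after rescaling (adjusted p = 0.063), with no filter on low values (adjusted p = 0.074) and without WT day 3 replicate 1 (adjusted p = 0.084) or replicate 3 (adjusted p = 0.11). *asp-17* was at 5.15 to 6.20 FPKM in WT, against 2.23 to 3.08 FPKM in *alh-6* at L4 (-0.998, adjusted p = 0.0052), with a term of 1.199 (adjusted p = 0.012), and in adults *asp-14* was higher in *alh-6* (0.64, adjusted p = 0.0075), a call lost in the fit of all 12 libraries (adjusted p = 0.076). The authors' handling of reads that fit several genes is not given in the sources used here, so levels of close family members may share reads.

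Of 20 other lysosomal and gut proteases 18 were tested at L4, and 5 were higher in *alh-6* with none lower, where 8.19% of all genes were higher. The list's median was 0.18. *cpl-1*, the cathepsin L that worms need in embryos and at molts, was at 506 to 617 FPKM in WT, against 794.5 to 924 FPKM in *alh-6* (0.56, SE 0.091, adjusted p = 0.0040). *cpz-1*, a cathepsin Z with a part in molting, was at 298 to 395 FPKM in WT, against 634 to 699 FPKM in *alh-6* (0.87, SE 0.108, adjusted p = 0.0012). *ctsa-1.1*, a relative of cathepsin A, was at 232 to 248 FPKM in WT and 239.7 to 272 FPKM in *alh-6* (0.10, adjusted p = 0.33). The other 3 that were higher, chosen after their values were seen, were *lgmn-1* (0.41), *pcp-3* (0.40) and *tag-196* (0.38). In adults 1 of 17, *ctsa-1.2*, was higher in the mutant (0.48, adjusted p = 0.0047). *cpl-1* (-0.55, adjusted p = 0.016) and *cpz-1* (-0.94, adjusted p = 0.0021) were the 2 of 18 with a called genotype by stage term, of the same sign as that of *cpr-6*. Between the stages 16 of 18 fell and 1 rose in each genotype, where 51.5% of all genes in WT and 52.9% in *alh-6* fell, with medians of -1.26 and -1.68. The 16 in WT include *cpl-1* (-0.21, adjusted p = 0.029), which was at 0.03 after rescaling (adjusted p = 0.72) and lost its call without WT L4 replicate 1 or 2 or WT day 3 replicate 3 (adjusted p from 0.085 to 0.096).

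The cystatins *cpi-1* and *cpi-2*, which inhibit cysteine proteases, rose from L4 to adulthood in both genotypes. *cpi-1* went from 80.6 to 88.4 FPKM to 232 to 252 FPKM in WT (1.54, SE 0.052, adjusted p = 9.8e-09) and rose by 1.60 in *alh-6*, and *cpi-2* went from 178 to 184.5 FPKM to 239 to 269 FPKM in WT (0.49, SE 0.049) and rose by 0.51 in *alh-6*. Neither was called between the genotypes at either stage.

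Of 28 genes listed as lysosomal hydrolases, 1 of which, *aman-2*, encodes a Golgi mannosidase, 23 were tested at L4 with 3 higher in *alh-6*, which were *gana-1* (0.90), *hex-2* (0.41) and *gba-1* (0.31), and 23 in adults with *asah-1* higher (0.65), all named after their values were seen. Those with the highest mean level were not called at L4, the lipase *lipl-5* (0.23, adjusted p = 0.096, called with limma-voom at an adjusted p of 0.040), the acid nuclease *nuc-1* (0.24, adjusted p = 0.18) and *aman-2* (0.17, adjusted p = 0.14). Between the stages 5 of 24 rose and 13 fell in WT, and 7 of 25 rose and 12 fell in *alh-6*, beside 39.5% of all genes higher and 51.5% lower in WT and 36.9% and 52.9% in *alh-6*. *aman-2* is among the genes that rose, in WT (0.81) and in *alh-6* (0.58). Of the 26 tested for a genotype by stage term 1 was called, *hex-2* (-0.56, adjusted p = 0.046). The V-ATPase is the pump that acidifies lysosomes. Its genes and those of the lysosomal membrane, 31 in all, gave 1 call higher and 2 lower at L4. In adults 4 of 30 were lower and 0 higher. Over all tested genes 8.19% were higher and 7.15% lower at L4, and 2.14% and 4.18% in adults. The 4 adult log2 fold changes were -0.26 to -0.20, where rescaling shifts the median of all genes by 0.077. Of the 31 genotype by stage terms 6 were called negative, the sign of the *cpr-6* term, and 0 positive, beside 4.01% and 3.37% of all tested genes. With stage 23 of the 31 fell in each genotype while 8 rose in WT and 7 in *alh-6*, beside the shares of all genes given above. The 3 most abundant all encode V-ATPase subunits and fell in WT, *vha-2* by 0.99 (SE 0.065), and the log2 fold changes of *vha-10* and *vha-13* were -1.43 (SE 0.060) and -1.09 (SE 0.054).

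Of 11 regulators of gut and lysosome genes none was called between the genotypes at either stage in limma. The TFEB homolog *hlh-30*, a regulator of lysosome and autophagy genes, was at 42.3 to 47.9 FPKM in WT L4 worms and 17.3 to 19.5 FPKM in WT adults (-1.33, adjusted p = 1.7e-07). *mxl-3*, a repressor of lysosomal lipase genes in fed worms, fell by 2.16 in WT (SE 0.090), and the gut GATA factors *elt-2* and *elt-7* fell by 2.46 (SE 0.159) and 2.18 (SE 0.133). *skn-1*, the NRF2 homolog, rose by 0.99 (SE 0.046), from 46.6 to 50.6 FPKM to 95.4 to 97.8 FPKM, and *daf-16*, the FOXO factor, by 0.27 (SE 0.061, adjusted p = 0.0023). In all 7 of 11 fell and 3 rose in WT, and 7 fell and 2 rose in *alh-6*. Over all tested genes 51.5% fell and 39.5% rose in WT, and 52.9% and 36.9% in *alh-6*.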

How the data were processed

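Reads were sequenced from whole-worm libraries (NEBNext Ultra RNA kit, which does not mark strand) by a commercial provider. The submitters' processing notes name CASAVA 1.8, Bowtie2 2.2.3, TopHat2 2.0.12, HTSeq 0.6.1, DESeq 1.18.0 and ce11, the assembly also called WBcel235. The deposited table gives FPKM for every gene in each library, and the authors also deposited, for each group, a mean of reads divided by size factors, a normalized signal. The authors' own fold changes and p-values were not used. Gene symbols and coordinates were taken from release 115 of the WBcel235 annotation. FPKM joined with the group means gave whole reads per library for 100% of 211333 values (within 0.001 of a whole number).

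Each comparison was tested with limma 3.58.1 (R 4.3.3, trend and robust variance) on log2(FPKM + 0.1), over genes with an FPKM of at least 1 in at least 3 libraries of the fit, with Benjamini-Hochberg adjustment over all genes tested and calls at an adjusted p under 0.05. Fold changes are on that log2 scale. The fit was also run on simulated counts. Those had the same spread setting for every gene and no shift shared by the genes of a library. The simulation therefore does not show how the fit performs on these libraries. No 2 libraries of a group agreed within counting noise (chi-square over its degrees of freedom was 3.76 to 22.0), so each library counted once. All members are named, together with the 2 genes most like each, and from each longer list of related genes up to 3 with the highest mean. Other genes of these lists, and the markers, were named after their values were seen. The members and lists were chosen with earlier results of these data known. Alternatives were another pseudocount, no filter, rescaling, all libraries in 1 fit, a replicate block, limma-voom on the recovered reads, a fold threshold and leaving out each library. Sequences were not analysed here.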

Additional observations from a re-analysis of the deposited data

Results flagged for a closer look

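The difference between *alh-6* and WT in *cpr-6* changed with stage, which the test of the genotype by stage term picked out among the 10 genes. The term was -0.51 on the log2 scale (SE 0.121, limma adjusted p = 0.024), from an excess of 0.64 in the mutant at L4 to 0.13 in day 3 adults. The term kept its sign in every alternative tried and lost its call in those given in the report.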

How the results depend on the processing

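Over 94 results for single genes and their alternatives, 1239 of 1302 values kept their direction and their side of the threshold. The genotype difference at L4, with 2 members called, gave 1 without a filter on low values, 4 in a fit of all 12 libraries, 4 with limma-voom, 0 with a further minimum of 1 on the absolute log2 fold change and 1 to 2 with a library left out. The day 3 difference gave 0 to 2 with a library left out. The stage difference in WT gave 6 at the fold threshold. The genotype by stage term, with 1 called, gave 0 after rescaling, 0 at the fold threshold and 0 to 2 with a library left out. For most of these settings the share of all genes called is not given. A higher or lower count of members, also with the replicate block, is therefore no result about the members. After rescaling, the summed levels were 6446 FPKM in WT, against 7713 FPKM in *alh-6*, at L4, and 3370 and 3697 FPKM in adults (3262 and 3390 FPKM as deposited), and the sign changed for *cpr-4* at L4 (0.0070), for *cpl-1* between the stages in WT (0.028), for *cpr-6* between the stages in *alh-6* (0.25) and for the *asp-1* term (0.030).

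With a library left out, differences between genotypes at L4 ran from -0.12 to 0.026 for *cpr-3*, -0.11 to 0.052 for *cpr-4* and -0.025 to 0.14 for *cpr-5*, the day 3 difference of *cpr-3* from -0.13 to 0.24, the *cpr-6* stage difference in *alh-6* from -0.11 to 0.00091, and the terms from -0.079 to 0.29 for *cpr-3* and -0.14 to 0.058 for *asp-1*, none of them called with all libraries. The causes were not tested. Whether replicate numbers pair the libraries was not settled, since 3 libraries per group are too few for correlations of deviations to exclude it. At L4 same-numbered libraries correlated at 0.14, -0.02 and 0.38, and other-numbered ones at -0.43 to 0.37. In adults the values were 0.004, -0.08 and -0.16, against -0.12 to 0.17. With the replicate block 5 members were called at L4, 8 between the stages in *alh-6*, 10 in WT, 0 in adults and 1 for the term. *cpr-3* had the fewest reads, 317 to 623 per library.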
